A study of Homo sapiens with 20 samples.

Results

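NGP is an established human neuroblastoma cell line, derived from a tumour of the sympathetic nervous system. The cells were treated with nutlin-3 (8 µM, a racemic mixture), a small molecule that occupies the p53-binding pocket of MDM2, or with ethanol as vehicle, and poly(A) RNA was sequenced from 10 samples per condition. The genes described here are the imprinted H19/IGF2 locus on chromosome 11 and the imprinted DLK1/MEG3 locus on chromosome 14, namely H19, IGF2, DLK1, MEG3, RTL1, MEG8 and MEG9. These 7 genes were chosen by name with results of this nutlin comparison known, so their differences between the conditions are described and not tested. Counts were found for 6 of the 7, among 27697 genes tested in all. RTL1 matched none of the transcript identifiers and was not analysed here. The study's methods call the samples biological replicates, grown in culture flasks, and give no length of treatment and no further detail on how the replicates were set apart. P-values for other genes measure the spread between these samples of 1 cell line. The gene lists used further below were also drawn up with earlier results of these data known. The percentages called in them are therefore no independent test.

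An imprinted gene is transcribed mainly from the chromosome of 1 parent. At the chromosome 11 locus, IGF2 encodes a growth factor and is usually active on the paternal chromosome, whereas H19 is a long non-coding RNA (lncRNA) usually active on the maternal one. The CTCF protein binds the unmethylated control region between them and keeps IGF2 from enhancers that both genes use. At the chromosome 14 locus the paternal chromosome usually gives DLK1, a membrane protein of the Notch ligand family, and RTL1, a protein derived from a retrotransposon. The maternal one gives MEG3, MEG8 and MEG9, a row of lncRNAs on 1 strand that are hosts of many microRNAs. IGF2 and DLK1 are both well known from fetal tissue and from sympathoadrenal cells. On GRCh38, in the GENCODE annotation, H19 (ENSG00000130600) spans chr11:1995166-2004552 and IGF2 (ENSG00000167244) chr11:2129112-2158391, both on the minus strand. DLK1 (ENSG00000185559) spans chr14:100725705-100738224, MEG3 (ENSG00000214548) chr14:100779410-100861031, MEG8 (ENSG00000225746) chr14:100894770-101038859 and MEG9 (ENSG00000223403) chr14:101042908-101072937, all on the plus strand. The RNA values here do not tell the parental copies apart.

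The sum of estimated counts ranged from 14455477 to 19532971 per sample. The level of MDM2, a target of p53, lay between 131.1 and 309.1 TPM (estimated counts scaled by transcript length and library size) in the vehicle samples and between 2766 and 3987 TPM in the nutlin samples. Markers of sympathoadrenal cells had a summed level of 2912 to 3346 TPM in vehicle and 3489 to 4479 TPM in nutlin samples, with all 10 genes of that list detected. The summed level of 4 Schwann cell markers (0.928 to 2.25 TPM in vehicle and 0.675 to 1.93 TPM in nutlin samples) and of 3 endothelial markers (0.147 to 1.2 TPM in vehicle and 0.196 to 1.08 TPM in nutlin samples) stayed low and overlapped between the conditions. The 3 immune markers summed to 0.389 to 1.67 TPM in vehicle and to 2.96 to 6.56 TPM in nutlin samples, with CD68 giving most of it and CD3E at 0 in every sample. The 5 mesenchymal markers summed to 591.9 to 675.2 TPM in vehicle and 365.8 to 503.2 TPM in nutlin samples, nearly all of it from VIM, which was lower in nutlin samples. Of the other 4, COL1A1 was higher in nutlin samples (means of 2.399 and 8.152 TPM, no overlap) and so was PRRX1 on average (0.2263 and 1.004 TPM), while COL1A2 stayed at or below 0.28 TPM and COL3A1 at or below 1.09 TPM. The part of these shifts in the results was not tested. In bulk RNA a change in the share of cells that use a gene and a change in RNA per cell cannot be told apart.

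All 6 measured genes of both loci were higher in nutlin-treated cells, by between 1.47-fold (H19) and 5.0-fold (MEG3), and for each of them every nutlin sample lay above every vehicle sample. The median log2 fold change (LFC) of the 6 genes was 1.48, against 0.19 over all genes tested. LFCs came from an edgeR quasi-likelihood fit over all genes, which called 58.8% of them significantly differentially expressed (SDE) at 5% false discovery rate (FDR). Of all genes, 32.3% were called and higher in nutlin, 26.5% were called and lower, and 12.2% had every nutlin sample above every vehicle sample in CPM (counts scaled by the TMM-adjusted library size, with no correction for length). All 6 were among the called and higher genes, and since they were listed with this comparison known, nothing is read from that count.

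The order of levels per length was the same in both conditions. In TPM, which corrects for transcript length, H19 came first, followed by MEG3, IGF2, DLK1, MEG8 and MEG9. No neighbours in this order overlapped in range, in either condition.

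**Figure D1:**
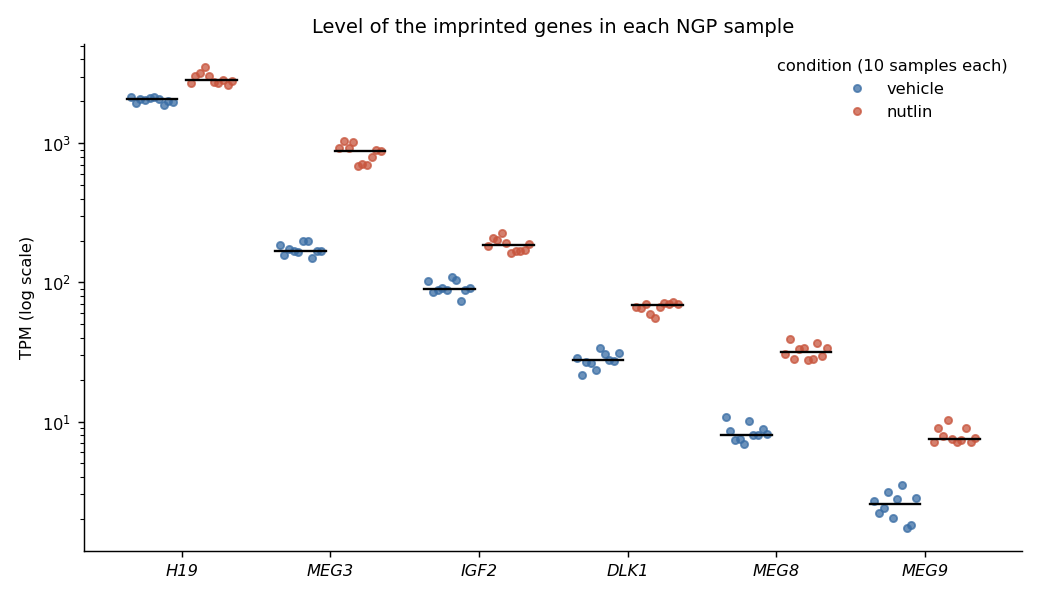
Level of the 6 measured genes in each of the 20 NGP samples, in TPM on a log axis. Blue points are the 10 vehicle samples, red points the 10 nutlin samples in order of replicate number, and black lines are medians. For every gene all red points sit above all blue points, with the widest gap for MEG3 (medians of 169.1 and 883.6 TPM).

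H19, whose RNA carries the miR-675 hairpin, was the most abundant lncRNA of the transcriptome in both conditions. Its level in vehicle samples ran from 1892 TPM over a median of 2065 TPM to 2142 TPM. In nutlin samples it ran from 2620 TPM over a median of 2830 TPM to 3530 TPM. The nutlin samples thus formed a separate and wider range, with replicate 4 at the top. The LFC was 0.55 ± 0.05 (SE, n = 10 per condition). H19 alone took 0.299% of the counts in vehicle and 0.5% in nutlin samples on average. Its share of all lncRNA counts was 11.51% ± 0.603 in vehicle and 11.66% ± 0.999 in nutlin samples (SD, n = 10 each), with overlapping ranges of 10.49% to 12.61% and 10.59% to 13.22%.

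IGF2, the growth factor that signals through the IGF1 receptor, was measured at 73.73 TPM in the lowest, 90.3 TPM in the median and 108.9 TPM in the highest vehicle sample. The nutlin samples gave 164.0, 185.6 and 228.3 TPM. The conditions did not overlap, and vehicle replicate 10 and nutlin replicate 7 were lowest, vehicle replicate 8 and nutlin replicate 4 highest. The LFC was 1.03 ± 0.06, a 2.05-fold difference. With H19 up 1.47-fold, the ratio of H19 to IGF2 in TPM was lower under nutlin, at 15.68 ± 0.811 against 22.33 ± 1.86 in vehicle (SD, n = 10 each). The highest nutlin ratio was 17.19 and the lowest vehicle ratio 19.68.

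Nearly all H19 counts fell on transcripts that start at the same first exon. H19-202, the spliced form of 2122 bases effective length, took 77.2% ± 3.71 of the H19 counts in vehicle and 76.6% ± 2.08 in nutlin samples. H19-201, annotated with a retained intron, took 15.8% ± 3.58 and 16.7% ± 1.64. Both shares overlapped between the conditions. As shares of TPM, H19-202 held 59.2% and 59.4% and H19-201 15.9% and 17.1%, and H19-211, a short transcript outside the naming rule with 4.75% and 4.36% of the counts, held 21.1% and 19.5%. Transcripts from the start sites upstream of that exon held 0.0148% of the H19 counts in vehicle and 0.0294% in nutlin samples.

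IGF2 counts were spread over coding transcripts with different first exons. IGF2-203 held 50.4% ± 3.93 in vehicle and 45.1% ± 2.21 in nutlin samples, IGF2-204 28.4% ± 3.49 and 28.8% ± 2.67, and IGF2-205 20.2% ± 3.94 and 24.6% ± 3.56. In CPM the nutlin mean was 1.85 times the vehicle mean for IGF2-203, 2.08 times for IGF2-204 and 2.47 times for IGF2-205. The shares of all 3 overlapped between the conditions. IGF2-203 and IGF2-205 encode 180 codons and IGF2-204 encodes 183. INS-IGF2, a read-through gene over the same exons, received at most 4.3 counts in any sample. IGF2-AS, on the opposite strand, had 90.0 to 147.0 counts in vehicle and 148.0 to 220.7 counts in nutlin samples. The kit keeps the strand, but whether the quantification used it is not given in the sources used here, so IGF2-AS stays uncertain.

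The DNA just before the main IGF2 start is shown to locate the transcript that carries the largest share of the IGF2 counts, IGF2-203. It is written 5′ to 3′ along the gene, from GRCh38, and holds the 250 bases before the start of IGF2-206, at position 2137305. IGF2-206 held 0.451% of the IGF2 counts in vehicle samples. IGF2-203 starts further along the gene, at position 2137290, so the window ends short of that start. Capitals mark GGGCGG, the GC box, found 1 time. TATAAA and TGACGTCA were searched too, on both strands, and neither is in this window.
IGF2, chr11:2137306-2137555, minus strand: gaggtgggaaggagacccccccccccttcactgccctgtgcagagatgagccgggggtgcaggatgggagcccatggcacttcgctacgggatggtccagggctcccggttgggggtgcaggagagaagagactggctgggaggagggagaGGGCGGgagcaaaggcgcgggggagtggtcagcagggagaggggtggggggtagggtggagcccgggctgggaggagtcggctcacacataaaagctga
None of the 3 words contains another. Over 34943 RefSeq promoter windows, GGGCGG occurred in 44.9% of windows of 300 bases and in 42.5% of windows of 250 bases, TATAAA in 11.6% and 10.8%, and TGACGTCA in 1.84% and 1.63%. The 10-base p53 element, searched by its consensus, was in none of the windows described here and in 6.64% and 5.58% of promoters.

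The miR-675 hairpin lies inside an exon in 9 of the 11 matched H19 transcripts, which held 100.0% of the H19 counts in both conditions after rounding. Its mature arms are shown because nearly every H19 count above stands for a transcript that carries them. RefSeq gives these mature sequences on GRCh38.p14, with the seed, bases 2 to 8, in capitals.
hsa-miR-675-5p, chr11:1996800-1996822, minus strand: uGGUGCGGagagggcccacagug
hsa-miR-675-3p, chr11:1996768-1996787, minus strand: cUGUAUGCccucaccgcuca
The arms have different seeds. Mature microRNAs are not captured by poly(A) libraries, so none of the values describe them.

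MEG3, a nuclear lncRNA studied as a growth suppressor, differed most of the 6 genes. Vehicle samples gave 150.1 TPM at the lowest, 169.1 TPM at the median and 198.5 TPM at the highest. Nutlin samples gave 687.6, 883.6 and 1030 TPM, so that the lowest nutlin sample was more than 3 times the highest vehicle sample. The LFC was 2.32 ± 0.06, a 5.0-fold difference. MEG3 took 0.0409% of the counts in vehicle and 0.233% in nutlin samples. Ranked by mean TPM among 34439 genes, it stood at place 665 in vehicle and 112 in nutlin, and among 14876 lncRNA genes at place 22 and 8. Unlike H19, its share of all lncRNA counts was larger under nutlin, 5.424% ± 0.554 against 1.57% ± 0.106, with no overlap. Larger LFCs were not rare: among the 2371 lncRNAs at 1 CPM or more on average, 90 had an LFC above that of MEG3.

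DLK1, the coding gene of the paternal chromosome at this locus, had 21.69 TPM in the lowest vehicle sample, a median of 27.48 TPM and 33.73 TPM in the highest. The nutlin values were 55.33, 68.26 and 71.99 TPM. The conditions were apart, and the LFC was 1.28 ± 0.06, a 2.43-fold difference. Nutlin replicate 4, the highest in CPM for H19, IGF2, MEG3 and MEG9, was the lowest of the nutlin samples for DLK1 (89.96 CPM). The ratio of MEG3 to DLK1 in TPM was 6.308 ± 0.614 in vehicle and 12.94 ± 2.25 in nutlin samples, from 5.394 to 7.245 and from 9.963 to 17.32.

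MEG8 and MEG9, downstream of MEG3 on the same strand, span 13 and 21 microRNA hairpins of the RefSeq table, against 2 within MEG3. MEG8 was measured at 6.883, 8.032 and 10.86 TPM in the lowest, median and highest vehicle sample and at 27.74, 31.74 and 39.08 TPM in the nutlin samples. Its LFC was 1.89 ± 0.07. MEG9 was measured at 1.722, 2.555 and 3.516 TPM in vehicle and at 7.091, 7.505 and 10.2 TPM in nutlin samples, with an LFC of 1.67 ± 0.08. Neither gene overlapped between the conditions. These are the shallowest values of the locus, with 48.65 to 77.6 estimated counts per vehicle sample for MEG8 and 55.57 to 109.3 for MEG9. In CPM, which does not correct for length, MEG9 was above MEG8 in median (5.267 and 4.381 CPM in vehicle, 16.84 and 15.72 CPM in nutlin), whereas in TPM the order was the reverse, since the MEG8 transcripts are short.

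The ratio of MEG3 to its downstream neighbours shifted less than the ratio to DLK1. MEG3 over MEG8 in TPM was 20.88 ± 2.68 in vehicle and 26.91 ± 4.09 in nutlin samples. MEG3 over MEG9 was 71.7 ± 13.1 and 107.8 ± 14.3. Both pairs of ranges overlapped.

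**Figure D2:**
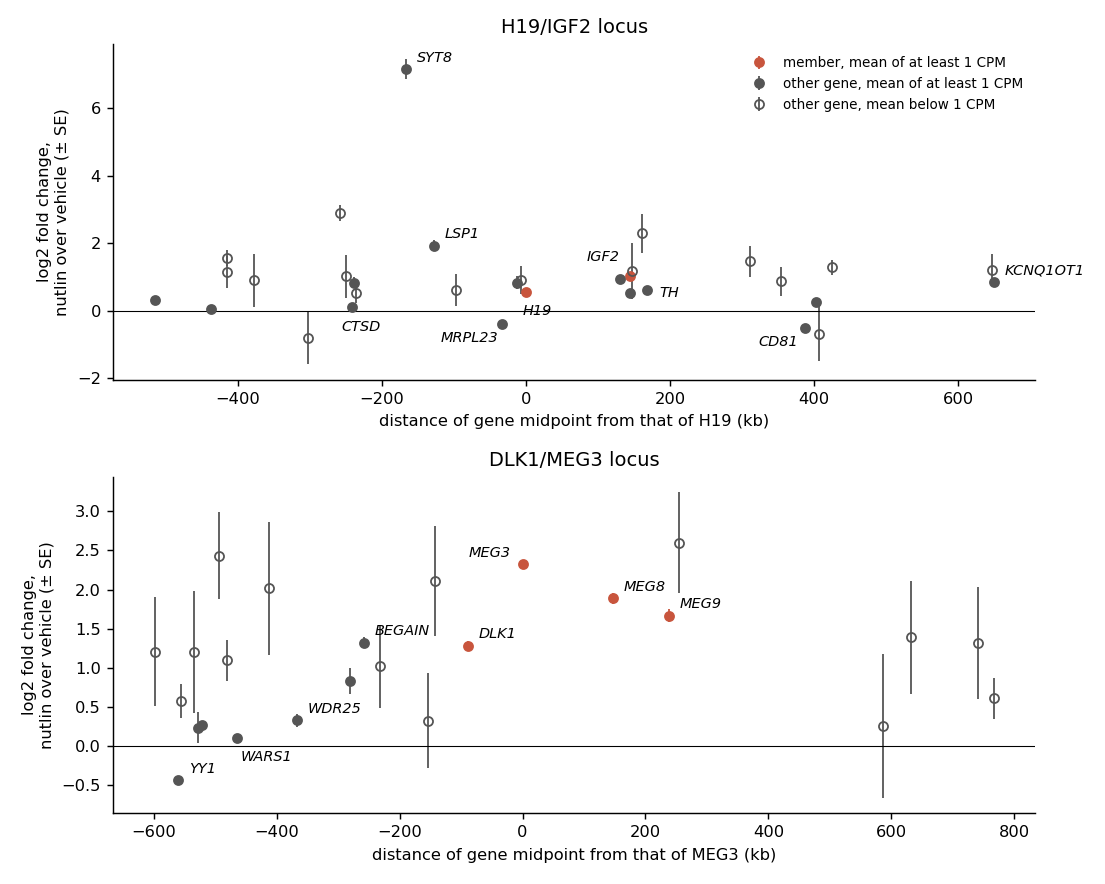
LFC (nutlin over vehicle, ± SE derived from the edgeR test) of every tested gene within 500 kb of the described genes, against the distance in kb between gene midpoints. Red points are the described genes, filled grey points other genes averaging 1 CPM or more and open points those below. MEG3 has the highest filled point of its locus (2.32), and at the H19/IGF2 locus SYT8 stands far above all others on 4 counts in the vehicle samples.

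MEG3 transcripts did not all differ to the same degree. Of the 27 transcripts with a matched identifier, 13 start within a cluster of first exons between positions 100826108 and 100826132 of chromosome 14, and together they held 50.18% to 54.63% of the MEG3 counts in vehicle samples. In nutlin samples they held 59.31% to 61.02%, above every vehicle sample (means of 52.3% ± 1.49 and 60.32% ± 0.531). In CPM these transcripts were 5.76 times as high under nutlin as under vehicle, against 4.16 times for the 13 transcripts that start downstream of the cluster. These shares rest on how kallisto divides reads among transcripts with common exons, so they are estimates of the model and not of reads unique to a transcript.

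MEG3-210, which starts in the first exon cluster and ends early in the locus, held the largest share of the MEG3 counts, and this share was the same in both conditions, 30.4% ± 1.32 in vehicle and 30.4% ± 1.08 in nutlin samples. Forms from that cluster that extend further along the locus, though not always longer as spliced RNA, had larger mean shares under nutlin. MEG3-220 held 8.63% ± 1.35 and 11.9% ± 1.27, and MEG3-209 7.43% ± 1.39 and 9.9% ± 1.14, both with some overlap. In CPM they were 6.86 and 6.73 times as high under nutlin. All transcripts of the cluster that reach past the end of MEG3-210 held 21.87% in vehicle and 29.89% in nutlin samples, with no overlap.

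Among the forms that start downstream, MEG3-202 held 22.69% ± 0.728 in vehicle and 19.96% ± 0.72 in nutlin samples. MEG3-222 held 10.3% ± 1.17 and 6.8% ± 0.739, and MEG3-201 held 7.54% ± 0.352 and 6.06% ± 0.384. For these 3 the shares did not overlap between the conditions, and no other named transcript of the 6 genes had that property. All 3 were still higher in CPM under nutlin, by 4.41, 3.3 and 4.0 times.

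**Figure D3:**
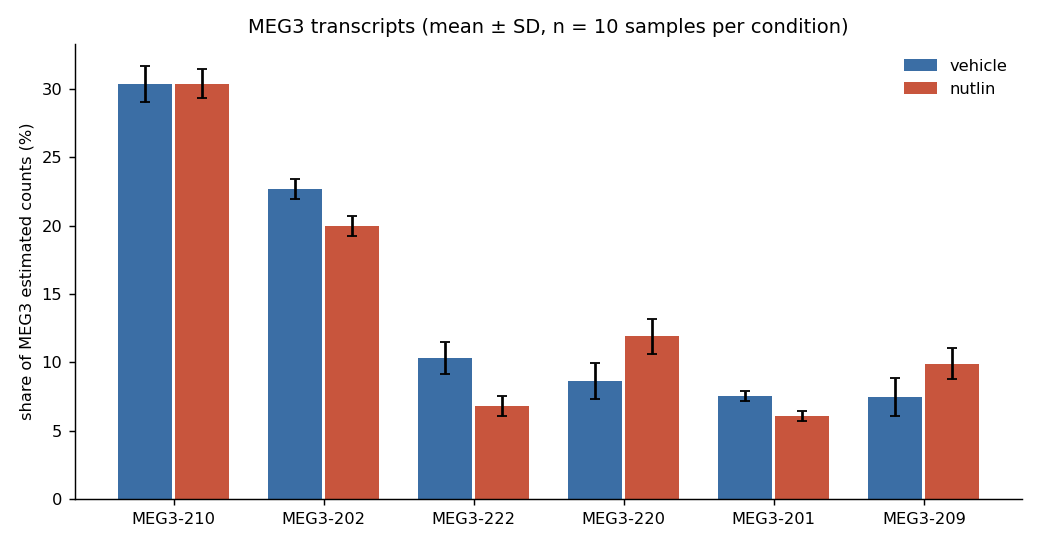
Share of the MEG3 estimated counts, in percent, on each MEG3 transcript with a mean of at least 5% in either condition. Bars are means and error bars SDs of 10 vehicle (blue) and 10 nutlin (red) samples. MEG3-210 stays at 30.4%, MEG3-220 and MEG3-209 are higher and MEG3-202, MEG3-222 and MEG3-201 lower under nutlin.

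The promoter of the first exon cluster is shown because the transcripts that start there held the larger part of the MEG3 counts in both conditions. This is by counts, which favour long transcripts. In TPM the transcripts of the cluster together held the smaller part in vehicle samples and the larger part in nutlin samples. As shares of TPM, MEG3-210 held 18.5% in both conditions, and MEG3-202, which starts downstream, 18.1% in vehicle and 15.9% in nutlin samples. The RefSeq window on GRCh38.p14 holds 250 bases before the start of MEG3-210 and 50 bases after it. Capitals mark TGACGTCA, the cyclic AMP response element, beginning 60 bases before the start, and TATAAA, the TATA box, beginning 28 bases before it. No GGGCGG is in this window.
MEG3, chr14:100825868-100826167, plus strand: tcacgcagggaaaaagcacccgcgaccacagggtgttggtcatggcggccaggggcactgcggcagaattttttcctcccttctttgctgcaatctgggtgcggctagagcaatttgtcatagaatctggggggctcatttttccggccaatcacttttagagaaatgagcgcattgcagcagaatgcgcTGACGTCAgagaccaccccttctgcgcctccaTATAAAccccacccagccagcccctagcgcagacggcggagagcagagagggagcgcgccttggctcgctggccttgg
The window before DLK1, 250 bases up to the start of DLK1-202 and read from the GRCh38 genome, is of another make. It holds GGGCGG 4 times and neither of the other words, and 76.8% of its bases are G or C, against 58.3% in the MEG3 window.
DLK1, chr14:100726642-100726891, plus strand: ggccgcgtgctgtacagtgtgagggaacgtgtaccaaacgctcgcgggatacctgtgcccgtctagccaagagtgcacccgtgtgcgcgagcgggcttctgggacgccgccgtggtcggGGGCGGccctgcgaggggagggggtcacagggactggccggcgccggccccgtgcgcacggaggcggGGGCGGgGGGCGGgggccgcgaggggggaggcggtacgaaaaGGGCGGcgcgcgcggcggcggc
A match marks only that these letters are present.

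miR-770 lies within MEG3 and is exonic in only 1 of the 17 matched transcripts that span it, MEG3-220, the transcript whose share went from 8.63% to 11.9%. The other 16 do not hold it within an exon. Its sequence is shown with the seed in capitals, from RefSeq on GRCh38.p14.
hsa-miR-770-5p, chr14:100852409-100852431, plus strand: uCCAGUACcacgugucagggcca

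For DLK1, MEG8 and MEG9 the shares of the named transcripts overlapped between the conditions. DLK1-201 held 60.6% ± 2.21 of the DLK1 counts in vehicle and 61.0% ± 1.6 in nutlin samples, and DLK1-202 held 38.5% ± 2.12 and 38.2% ± 1.42. As shares of TPM, which correct for the length of the transcripts, DLK1-201 held 82.4% and 83.0% and DLK1-202 13.4% and 13.3%. DLK1-202 encodes 383 codons. DLK1-201 splices out 219 coding bases (chr14:100734429-100734647), which leaves the reading frame intact and the protein 73 codons shorter. Shorter DLK1 forms of this kind are known to lack the stretch by which the extracellular part is shed from the membrane. MEG9-201 held 99.0% of the MEG9 counts in vehicle and 98.8% in nutlin samples. MEG8 counts were spread over 8 named transcripts along the gene, and in CPM each was between 1.99 (MEG8-206) and 7.87 times (MEG8-207) as high under nutlin. At a mean of 0.36 and 0.16 CPM in vehicle, these extremes rest on few counts.

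Replicates of 1 condition differed from each other by little. The coefficient of variation of CPM was 5.63% in vehicle and 9.2% in nutlin samples for H19, 6.59% and 12.1% for IGF2, 6.66% and 10.7% for MEG3, and 11.6% and 7.97% for DLK1. These small deviations from the condition mean were compared across the 20 samples, on log2(CPM + 1). Samples differ in library depth and can differ in base composition, and genes that follow these would also deviate together.

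IGF2 and MEG3, on different chromosomes, deviated together (Pearson r = 0.737 over 20 samples, 0.96 among vehicle samples and 0.66 among nutlin samples). H19 and IGF2 did so in nutlin (0.88) and less in vehicle samples (0.262), with 0.72 over all 20. MEG3 and DLK1, neighbours on chromosome 14, had an r of 0.068 over all 20, but 0.45 among vehicle and -0.275 among nutlin samples. For MEG3 and MEG8 these values were 0.143, -0.033 and 0.217.

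**Figure D4:**
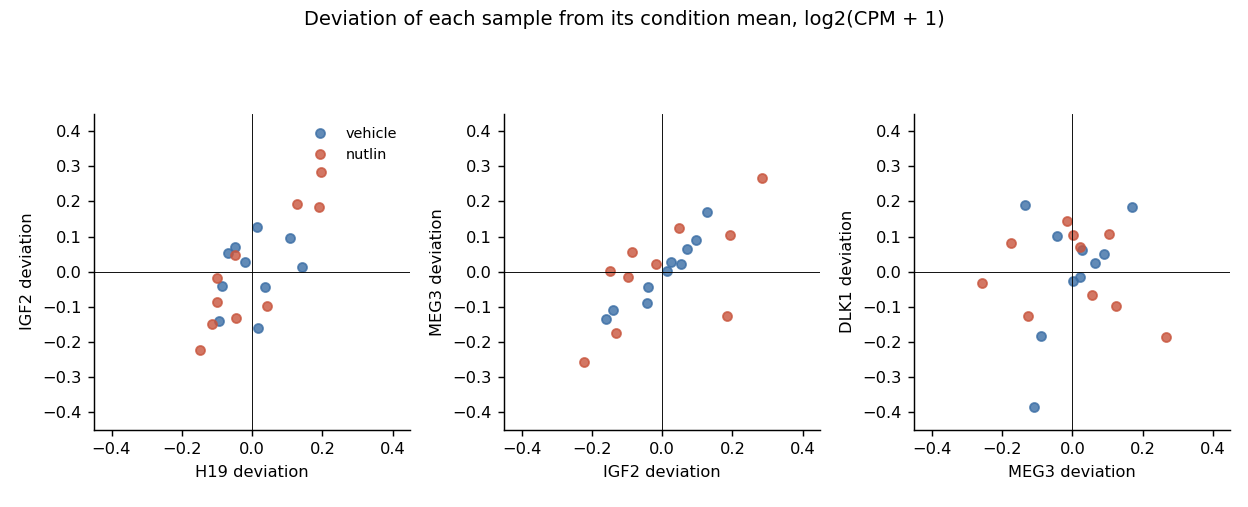
Deviation of each sample from the mean of its condition, in log2(CPM + 1), for H19 against IGF2, IGF2 against MEG3 and MEG3 against DLK1. Blue points are vehicle and red points nutlin samples. The points rise together in the first and second panel (r of 0.72 and 0.737 over 20 samples). In the last panel r was 0.068 over 20 samples, 0.45 in vehicle and -0.275 in nutlin samples.

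The genes whose deviations were most like those of H19 were CHGA, which encodes the secretory granule protein chromogranin A (r = 0.915), NOC2L (0.894) and PALD1 (0.873). For IGF2 they were TMEM25 (0.877), SORCS2 (0.83) and GGT7 (0.822). For MEG3 they were PLCXD1 (0.879), LENG8 (0.868) and TTLL3 (0.853). For DLK1 they were INKA1 (0.843), TIMP3 (0.832), an inhibitor of metalloproteases, and IER5 (0.829). MEG8 was most like LIPA (0.74), SLC16A9 (0.736) and UBE3D (0.712), and MEG9 most like NALF2 (0.804), GABRA5 (0.776) and CDK5R1 (0.746). All these values are over 20 samples, and none of the 18 genes lies at either locus. The choice of genes depended on the measure: 8 of the 18 were also among the nearest by Spearman correlation, 1 in the vehicle samples alone and 1 in the nutlin samples alone.

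Other genes around the H19/IGF2 locus were mostly higher too. Of 30 tested genes within 500 kb, 18 rose, 2 fell and 10 did not pass the test. Over all genes tested, 32.3% were called and higher and 26.5% were called and lower, here and for the lists below. The median LFC of the 30 genes was 0.86, against 0.19 over all genes. Of the 30, 14 averaged 1 CPM or more, so this median rests in large part on genes with few counts. LSP1, an actin-binding protein of leukocytes, rose from 0.577 ± 0.203 to 2.21 ± 0.375 CPM (LFC 1.93 ± 0.17, edgeR adjusted p = 5.26e-11). SYT8, of the synaptotagmin family, had 4.01 counts over all 10 vehicle samples and 765 over the nutlin samples (0.0259 and 4.87 CPM, edgeR adjusted p = 4.61e-19). TH, the rate-limiting enzyme of catecholamine synthesis just upstream of INS, rose with an LFC of 0.62 ± 0.07 (edgeR adjusted p = 6.21e-09). KCNQ1OT1, the imprinted lncRNA of the neighbouring domain, rose with an LFC of 0.85 ± 0.07 (edgeR adjusted p = 2.02e-11). ENSG00000240801 rose with an LFC of 0.94 ± 0.1 (edgeR adjusted p = 1.38e-09), but it overlaps the end of IGF2 on the same strand, and the split of reads between them is uncertain. The genes that fell were MRPL23, a mitochondrial ribosomal protein gene next to H19, with an LFC of -0.39 ± 0.06 (edgeR adjusted p = 6.94e-07), and CD81, a tetraspanin, with -0.51 ± 0.04 (edgeR adjusted p = 4.08e-13). TH, MRPL23 and CD81 were named after their values were seen.

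Around the DLK1/MEG3 locus 21 genes were tested, of which 11 rose, 1 fell and 9 did not pass the test, with a median LFC of 1.02. The shares over all genes were 32.3% called and higher and 26.5% called and lower. BEGAIN, a postsynaptic density protein gene upstream of DLK1, rose from 25.5 ± 4.49 to 64.0 ± 4.95 CPM (LFC 1.32 ± 0.08, edgeR adjusted p = 1.12e-15). WDR25, on the far side of BEGAIN, rose with an LFC of 0.33 ± 0.08 (edgeR adjusted p = 0.00118), as did the lncRNA ENSG00000259031 within the bounds of BEGAIN, with 0.83 ± 0.17 (edgeR adjusted p = 9.55e-05). YY1, a zinc finger transcription factor at the edge of the window, fell with an LFC of -0.44 ± 0.03 (edgeR adjusted p = 1.11e-13). Only 7 of the 21 genes averaged 1 CPM or more. Beside the genes just named, these were SLC25A29, ENSG00000258504 and WARS1, with LFCs of 0.27, 0.23 and 0.11. The median of 1.02 thus rests mostly on genes with a mean below 1 CPM. With a filter on low counts, 7 of 8 genes were called.

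Imprinted genes elsewhere in the genome had no common direction. Of 43 tested, 18 rose, 13 fell and 12 did not pass the test, with a median LFC of 0.23. KCNK9, a potassium channel gene, rose from 1.67 ± 0.446 to 18.4 ± 1.63 CPM (LFC 3.45 ± 0.1, edgeR adjusted p = 7.82e-23), and PEG13, a lncRNA of the same domain, rose 5.06-fold (LFC 2.34 ± 0.18, edgeR adjusted p = 2.62e-12). PEG10, a retrotransposon-derived gene, fell from 583.0 ± 37.5 to 136.0 ± 4.97 CPM (LFC -2.1 ± 0.04, edgeR adjusted p = 1.12e-27). SGCE, which shares its promoter region with PEG10, fell with an LFC of -1.5 ± 0.11 (edgeR adjusted p = 1.15e-12).

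Genes that set or read imprints were mostly lower. Of 18 tested, 4 rose and 14 fell, and the median LFC was -0.8. The shares over all genes were 32.3% called and higher and 26.5% called and lower. UHRF1, which brings the maintenance methyltransferase to newly copied DNA, fell from 378.0 ± 10.3 to 49.0 ± 3.54 CPM (LFC -2.95 ± 0.04, edgeR adjusted p = 8.91e-31). DNMT3B, a de novo DNA methyltransferase, fell with an LFC of -1.9 ± 0.08 (edgeR adjusted p = 1.96e-18). The cohesin subunits RAD21 and SMC3, which also hold sister chromatids together, fell with LFCs of -1.39 ± 0.04 (edgeR adjusted p = 3.06e-23) and -1.28 ± 0.03 (edgeR adjusted p = 5.03e-24). UHRF1 and cohesin genes are also known to be expressed with the cell cycle, and the part of the cell cycle in these values was not tested.

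Of the partners of IGF2, 23 genes were tested, of which 13 rose, 5 fell and 5 did not pass the test, with a median LFC of 0.59. The receptor gene IGF1R rose from 1.02 ± 0.464 to 6.81 ± 1.35 CPM (LFC 2.7 ± 0.17, edgeR adjusted p = 2.73e-14). The proteases that cleave IGF-binding proteins rose, PAPPA with an LFC of 1.81 ± 0.09 (edgeR adjusted p = 7.68e-17) and PAPPA2 with 3.61 ± 0.19 (edgeR adjusted p = 3.64e-16). STC2, which inhibits these proteases, rose from 8.71 ± 1.17 to 91.6 ± 6.42 CPM (LFC 3.39 ± 0.06, edgeR adjusted p = 1.31e-27). 

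Among 16 tested genes of Notch signalling and of DLK1 partners, 8 rose, 4 fell and 4 did not pass the test, with a median LFC of 0.34. The ligand JAG1 rose from 21.8 ± 1.36 to 74.9 ± 6.07 CPM (LFC 1.78 ± 0.05, edgeR adjusted p = 1.13e-23) and JAG2 with an LFC of 1.22 ± 0.06 (edgeR adjusted p = 2.09e-16). The targets HES1 and HEYL, both transcriptional repressors, rose with LFCs of 1.84 ± 0.14 (edgeR adjusted p = 1.61e-12) and 0.86 ± 0.09 (edgeR adjusted p = 2.79e-09). Beside the 58.8% called over all genes, the percentage called in either direction was 66.7% near H19/IGF2, 57.1% near DLK1/MEG3, 72.1% of the other imprinted genes, 78.3% of the IGF2 partners and 12 of 16 genes of the Notch list, and the imprint control genes were all called. The lists were not matched to all genes on abundance. With a filter on low counts, 13131 of 16347 genes were called over all. With it, 25 of 31 other imprinted genes, 15 of 16 IGF2 partners and 12 of 14 Notch list genes were called. So were 17 of 18 imprint control genes, 14 of 15 genes near H19/IGF2 and 7 of 8 near DLK1/MEG3.

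**Figure D5:**
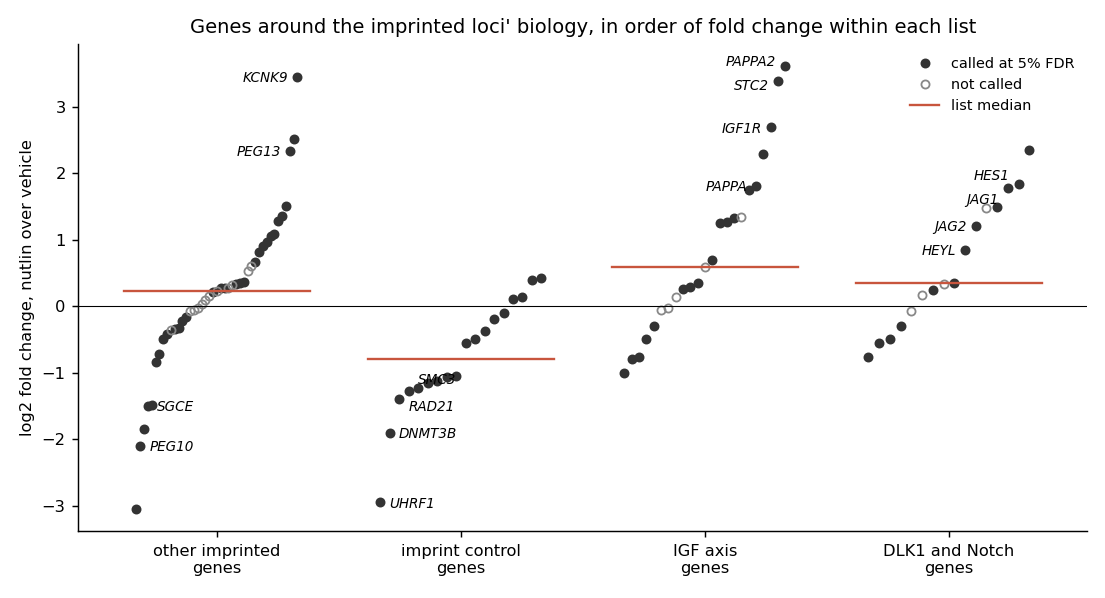
LFC (nutlin over vehicle) of the tested genes of 4 lists, ordered by LFC within each list. Filled points are SDE genes at 5% FDR, open points are not called, and red lines are list medians. The imprint control genes lie mostly below 0 (median -0.8), the other lists spread to both sides.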

How the data were processed

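The 20 samples were grouped by their labels, 10 nutlin and 10 vehicle. The authors quantified transcripts with kallisto 0.42.4 and deposited 3 values for each of 198968 transcripts in every sample: an estimated count, a TPM and an effective length. The estimated counts were not normalized by the authors. The effective lengths, in bases, are deposited as kallisto gave them and entered 1 alternative. The TPM values, which the authors' kallisto runs scaled by length and depth, were summed per gene and used for levels only. Reads came from a stranded poly(A) kit.

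Transcripts were assigned to genes by identifier without version with GENCODE release 44, and 191106 (96.05%) matched. Estimated counts were summed per gene and rounded. The 27697 mRNA and lncRNA genes that had 1 count or more in both conditions entered the quasi-likelihood F-test of edgeR 4.0.16 (R 4.3.3), with TMM scaling and no term other than condition. The SE of an LFC is not given by that test and was derived as the absolute LFC divided by the square root of its F statistic. P-values were adjusted by Benjamini-Hochberg, and genes below 5% FDR are called SDE. The test was also run on simulated data in which far fewer genes were changed than were called here. That run does not give its error rate in these data. CPM values are TMM-scaled. The promoter window and microRNA sequences came from RefSeq tables and the GRCh38 genome, with a promoter entry for 3 of the 6 measured genes. A further sequence window is not reported here. Figures used Python 3.11.15 and matplotlib 3.10.9.

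The members and the lists were chosen with earlier results of these data known. In each list, and near each locus, up to 4 SDE genes were named, those with the largest absolute LFC among genes averaging 1 CPM or more. For each member the 3 genes with the most similar deviations and transcripts with at least 5% of the counts were named as well. Alternatives were DESeq2 size factors, DESeq2 1.42.0, limma 3.58.1 with voom, filterByExpr with a minimum count of 10, no filter, a length offset, the replicate number as a block, CPM for TPM, shares of TPM, other correlations, and a window of 250 kb.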

Additional observations from a re-analysis of the deposited data

Results flagged for a closer look

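In 12 groups of 10 samples (6 genes in each condition), 1 sample stood apart from the others of its group. MEG8 in vehicle replicate 7 was at 3.48 CPM, the nearest vehicle sample at 4.16 CPM, a gap of 0.483 of the whole range of the group. If the values were normally distributed, which was not checked, about 1 in 20 such groups would have such a sample by chance. All nutlin samples were at 13.73 CPM or above for MEG8, so the separation of the conditions does not rest on it.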

How the results depend on the processing

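The LFC of every member kept its direction under all 8 alternative fits, from 0.52 to 0.63 for H19, 1.02 to 1.11 for IGF2, 2.3 to 2.4 for MEG3, 1.88 to 1.97 for MEG8, 1.66 to 1.76 for MEG9 and 1.26 to 1.36 for DLK1. The median LFC over all genes, 0.19 in the main fit, depended on filter and scaling, from 0.03 with filterByExpr to 0.24 with DESeq2. Of 27697 genes tested 16275 were called. Under the alternatives the count ran from 13131 of 16347 genes tested (filterByExpr) to 17126 of 30937 (no filter). Of the genes near DLK1/MEG3, 12 of 21 were called, against 7 of the 8 that passed filterByExpr and 5 of the 7 within 250 kb, where fewer genes were tested. Of the 18 genes most like a member, 8 were kept by Spearman correlation, 1 in the vehicle samples alone and 1 in the nutlin samples alone. Vehicle and nutlin samples share 8 replicate numbers, but same-numbered samples did not deviate together (correlations from -0.1 to 0.11), so the numbers are not taken as pairs. With the number as a block, 14276 genes were called over 16 samples, against 14992 in the same samples without it, an alternative added after the data were seen, and the median LFC of the members was 1.54 in both. The block moved no other count by over 1.5 times. MEG8 and MEG9, at 48.65 to 109.3 counts per vehicle sample, are the least precise, and transcript shares depend on the quantification model. By share of TPM in place of counts, 26 transcripts reached 5% against 22. DLK1-202 then held 13.4% in vehicle samples against 38.5%, MEG3-210 18.5% against 30.4%, and MEG3-220 3.33% against 8.63%.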
